A study of Mus musculus with 8 samples.

Results

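Gad1, T2, 2210019I11Rik and Tmem215 are 4 of the 24421 genes counted in single islet cells, and they were selected on their counts in β-cells, which were lower after partial pancreatectomy (PPTx) than in control. The differences between PPTx and control that chose them are therefore given as a description, and where the fit across all genes calls them, the call uses those same values and is no evidence of its own. The cells came from male C57BL/6J mice aged 8 weeks. In the PPTx group the splenic side of the pancreas, about 50% of the organ by weight, had been removed 2 days before islet isolation, and the control group had no operation, not even a sham one. Each group had 4 samples, and each sample held islets from 1 to 3 mice. PPTx samples hold islets of the remaining pancreas only, so surgery and pancreas region cannot be told apart here.

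Gad1 encodes the glutamate decarboxylase GAD67, which makes the inhibitory transmitter GABA from glutamate with pyridoxal phosphate as cofactor. β-cells make GABA and release it within the islet, where it acts on receptors and transporters of neighbouring cells and is broken down by the transaminase Abat. T2, or brachyury 2, is a gene that lies beside the T-box gene T. 2210019I11Rik is an older name of Plut, a long noncoding RNA gene at the locus of Pdx1, a transcription factor that β-cells need for their identity. Tmem215 encodes a transmembrane protein.

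In the RefSeq annotation of GRCm38.p6, the build also called mm10 that the authors aligned to, Gad1 (gene ID 14415) spans chr2:70561303-70602014 and T2 (gene ID 21331) spans chr17:8355760-8422728. Tmem215 (gene ID 320500) spans chr4:40472180-40475653. Plut (gene ID 70147, matched to 2210019I11Rik as a synonym) spans chr5:147228598-147271521 on the minus strand, and its first bases lie inside Pdx1 at chr5:147270097-147275848 on the plus strand. The authors' methods name the Cell Ranger pipeline for the counting but do not say whether strand was used. It is therefore not known whether reads from Plut and Pdx1 were kept apart where the genes overlap. The same holds for Gad1 and the noncoding Gad1os, which overlaps the start of Gad1. Start regions of 3 of the 4 genes were found in a RefSeq table of 32851 windows that run from 250 bases before to 50 bases after a transcript start. They are shown because these genes were lower together, with the letters searched for in capitals, 5′ to 3′ on the strand of each gene: the Gad1 window at chr2:70561879-70562178 (plus), the Plut window at chr5:147271472-147271771 (minus) and the first of 2 Tmem215 windows, at chr4:40471930-40472229 (plus).
Gad1: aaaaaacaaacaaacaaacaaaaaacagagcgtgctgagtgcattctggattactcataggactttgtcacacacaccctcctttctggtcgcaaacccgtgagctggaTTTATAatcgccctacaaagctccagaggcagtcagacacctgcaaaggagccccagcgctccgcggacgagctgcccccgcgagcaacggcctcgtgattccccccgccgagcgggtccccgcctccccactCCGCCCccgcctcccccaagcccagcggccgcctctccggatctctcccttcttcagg
Plut (2210019I11Rik): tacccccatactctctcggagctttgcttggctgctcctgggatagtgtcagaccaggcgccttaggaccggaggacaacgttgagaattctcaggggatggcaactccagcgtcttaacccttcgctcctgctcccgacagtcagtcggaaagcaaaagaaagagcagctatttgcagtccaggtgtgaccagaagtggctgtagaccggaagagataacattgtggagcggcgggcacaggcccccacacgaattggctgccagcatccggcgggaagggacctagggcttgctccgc
Tmem215: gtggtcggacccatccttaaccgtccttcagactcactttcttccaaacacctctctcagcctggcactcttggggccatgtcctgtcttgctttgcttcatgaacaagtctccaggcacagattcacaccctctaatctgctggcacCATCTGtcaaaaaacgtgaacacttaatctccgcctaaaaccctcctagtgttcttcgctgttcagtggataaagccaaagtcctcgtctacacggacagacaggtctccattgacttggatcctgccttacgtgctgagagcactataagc

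Short letter patterns known from binding sites were searched for on both strands. For transcription factors of islet cells these were TAATTA, which homeodomain proteins bind, CATCTG, which bHLH proteins bind, and TGTTTAC, which forkhead proteins bind. For stress and cAMP signalling they were TGACGT, bound by the CREB and ATF family, and CCACG, bound by the unfolded protein response factors Atf6 and Xbp1. For the core promoter they were TATAAA, known as the TATA box, and GGGCGG, known as the GC box. No letters were found in all 3 windows. The Gad1 window lay inside the Gad1 span given above, so its transcript start was not the first base of that span. The window held TATAAA on the other strand, starting at -141 relative to that transcript start, letters found in 13.6% of all windows. It also held GGGCGG on the other strand, found in 35.7%. The Tmem215 window held CATCTG, found in 17.2% of all windows, and its second window, at chr4:40472880-40473179, held CCACG on the other strand, found in 32.8%. The Plut window held none of them. None of these matches overlapped another. TAATTA was present in 5.29%, TGTTTAC in 3.65% and TGACGT in 7.51% of all windows and in none of the windows of these genes. G and C made up 60% of the Gad1 window, 58% of the Plut window, and 50% and 61.3% of the first and second Tmem215 windows, against a median of 52.7% over all windows.

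Cells were assigned by their hormone transcripts, a β-cell being a cell in which Ins1 and Ins2 held at least 70% of the counts of Ins1, Ins2, Gcg, Sst and Ppy. The 1232 cells used (520 control, 712 PPTx) comprised 949 β-cells, 112 α-cells (Gcg), 129 PP-cells (Ppy), 11 δ-cells (Sst) and 31 cells of mixed hormones. Samples held 227439 to 1580152 counts of unique molecular identifiers (UMIs, each 1 captured transcript), and 1 cell barcode occurred in more than 1 sample. The marker genes of β-cells were present in the β-cell class, such as Ucn3 with 532 CPM (counts scaled to 1000000 UMIs of the class) against 7.24 CPM in the other hormone classes, whereas Mafa had only 2 UMIs. The α-cells made up 9.23 to 27.8% of the cells in control samples and 0.633 to 5.19% in PPTx samples, and the PP-cells 3.08 to 8.82% and 10.1 to 15%, so that neither class overlapped between the groups. All levels below are CPM over the summed UMIs of the β-cells of a sample unless another class is named.

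In β-cells all 4 genes had lower mean levels after PPTx, and the groups did not overlap for T2, 2210019I11Rik and Tmem215 (plot of levels by sample). This contrast chose the genes, and the share of all tested genes whose groups do not overlap was not counted. Nothing is therefore read from the separation of the groups, here or for each gene below. For Gad1 the control samples 1 to 4 held 153, 165, 50.4 and 65.5 CPM and the PPTx samples 33.3, 51.1, 45.7 and 25.8 CPM. The lowest control sample lay just below the highest PPTx sample, and control samples 1 and 2 stood far above control samples 3 and 4. The Gad1 means were 108 ± 58.9 CPM in control and 39 ± 11.5 CPM in PPTx (SD, n = 4 each), with a fitted log2 fold change of -1.38 (SE 0.30), 0.384 of the control level.

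For T2 the control samples held 61.2, 40.2, 38.6 and 34.5 CPM and the PPTx samples 12.8, 24.8, 22.8 and 11 CPM. Every control sample was above every PPTx sample, and the means were 43.6 ± 12 and 17.9 ± 6.94 CPM (SD, n = 4 each), with a log2 fold change of -1.22 (SE 0.26), 0.429 of the control level. The neighbouring T-box gene T had 0 UMIs in the β-cells of all 8 samples.

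For 2210019I11Rik the control samples held 25.5, 33.9, 32.3 and 44.8 CPM and the PPTx samples 11.5, 19.2, 18.7 and 5.52 CPM. The groups did not overlap, and the lowest value, in PPTx sample 4, rested on 3 UMIs. Means were 34.1 ± 8 and 13.7 ± 6.49 CPM (SD, n = 4 each), with a log2 fold change of -1.40 (SE 0.29), 0.378 of the control level. Its antisense neighbour Pdx1 held 0, 12.7, 2.36 and 5.74 CPM in control and 7.68, 8.79, 8.3 and 5.52 CPM in PPTx samples, from 42 UMIs in all, so the PPTx values lay within the control range.

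For Tmem215 the control samples held 224, 172, 164 and 175 CPM and the PPTx samples 102, 162, 131 and 123 CPM. The lowest control sample and the highest PPTx sample lay almost side by side, so the groups were separate by a narrow margin. Means were 184 ± 27.6 and 130 ± 24.8 CPM (SD, n = 4 each), with a log2 fold change of -0.58 (SE 0.16), 0.671 of the control level. Among the 5892 genes tested, 2210019I11Rik, Gad1 and T2 had the 3rd, 4th and 11th lowest log2 fold changes and Tmem215 the 235th.

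**Figure D1:**
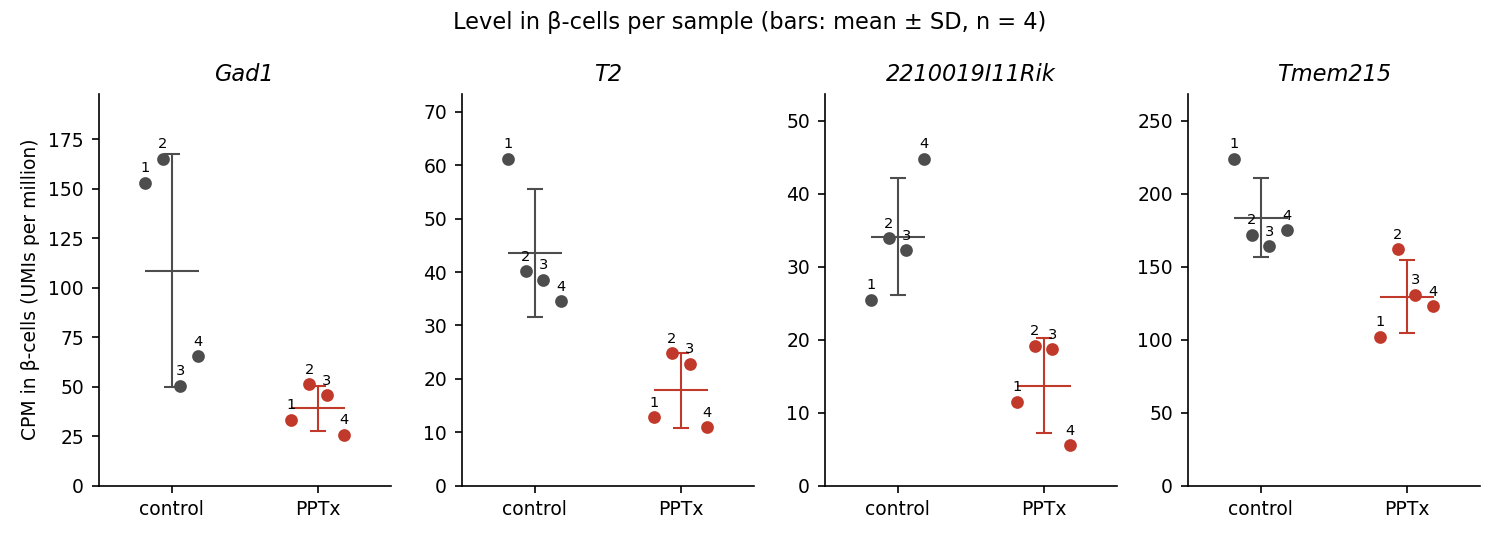
Level of each gene in the β-cells of each sample, in CPM (linear axis from 0), with control in grey and PPTx in red. Numbers beside the points are sample numbers and bars show the mean and SD of 4 samples; the PPTx points lie below all control points for T2, 2210019I11Rik and Tmem215, and Gad1 shows control samples 1 and 2 at 153 and 165 CPM.

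In edgeR's quasi-likelihood fit over all tested genes, 3 of the 4 genes (Gad1, T2 and 2210019I11Rik) were below an adjusted p of 0.05, and Tmem215 was not. The fit called 0.102% of the genes tested as lower (6 of 5892) and 10 as higher, and since this contrast chose the genes, nothing is read from their count. The other 3 genes called lower, named after their values were seen, were the metallothioneins Mt1 and Mt2 and the cation channel Trpm5. Without TMM scaling the fit called 23 genes higher and 4 lower, with the median of all genes at 0.13, and the values of the 4 genes were -1.27 (Gad1), -1.08 (T2), -1.25 (2210019I11Rik) and -0.45 (Tmem215). The calls of the 4 genes were often lost: 0 were left without control sample 1, control sample 2 or PPTx sample 1, and 1 without any other sample except PPTx sample 2. Only Gad1 was called without TMM scaling, and T2 was not called over all kept cells. By DESeq2 too only Gad1 was called, but DESeq2 gave no adjusted p for T2 and 2210019I11Rik. After thinning neither of the 2 genes tested (Gad1 and Tmem215) was called. The log2 fold change of Gad1 ranged from -1.67 without control sample 3 to -0.99 without control sample 2.

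Other features of the β-cells moved with the groups. The summed level of the 3 PP-cell markers (Ppy, Pyy and Etv1, all detected) was 255 to 1640 CPM in the β-cells of control samples and 2030 to 3710 CPM in those of PPTx samples. In β-cells with at most 1% of their UMIs from another hormone, the log2 fold changes were -1.38 for Gad1, -1.25 for T2, -1.39 for 2210019I11Rik and -0.52 for Tmem215. β-cells with replication transcripts made up 1.28 to 3.33% of the β-cells in control and 2.21 to 7.77% in PPTx samples, and without them the values were -1.34 for Gad1, -1.17 for T2, -1.51 for 2210019I11Rik and -0.59 for Tmem215, of which only 2210019I11Rik was called. The depth of the β-cells overlapped between the groups, with sample medians of 3468 to 10378 UMIs per cell in control and 3622.5 to 9566 UMIs in PPTx.

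To compare cells at 1 depth, each cell was thinned to 2000 UMIs, which left out no cell. The thinning was drawn at random only 1 time. Gad1 was then detected in 19.5% ± 10.4 of control and 7.38% ± 2.29 of PPTx β-cells (SD, n = 4 samples each), and in 42.9% ± 9.57 and 19.1% ± 8.7 without thinning. The control samples ranged from 8.13 to 29.6% and the PPTx samples from 5 to 9.71% after thinning, so the groups overlapped. T2 was detected in 9.1% ± 1.76 of control and 5.25% ± 1.87 of PPTx β-cells after thinning, and in 20.1% ± 4.41 and 10.6% ± 6.39 before it. Its lowest control sample, at 7.5%, lay below its highest PPTx sample, at 7.77%, after thinning. The thinned share of 2210019I11Rik was 5.3% ± 2.55 in control and 2.83% ± 1 in PPTx β-cells (17.5% ± 7 and 7.92% ± 3.87 unthinned), with overlap. Tmem215 was detected in 30.6% ± 5.89 of control and 20.3% ± 4.46 of PPTx β-cells after thinning (59.6% ± 10.8 and 46.9% ± 11.7 unthinned). Its lowest control sample, at 25.2%, was just above its highest PPTx sample, at 24.3%, in this 1 draw. Without thinning the groups overlapped for Tmem215, at 48.1 to 72.4% in control and 34.6 to 62.1% in PPTx samples.

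The number of UMIs in a cell that had any of them differed less. For Gad1 a positive control β-cell held 1.48 UMIs on average and a positive PPTx β-cell 1.41 without thinning. The corresponding values were 1.39 and 1.17 for T2, 1.4 and 1.17 for 2210019I11Rik, and 2.07 and 1.78 for Tmem215. The highest count of Gad1 in 1 cell was 5 UMIs in control and 6 in PPTx. Counts this low cannot separate fewer expressing cells from less RNA per cell.

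The 4 genes were also compared between β-cells and the other hormone cells of the same samples, a comparison that did not choose them (plot of levels by class). All were higher in β-cells. Tmem215 had 961 UMIs in 502 of 949 β-cells and 8 UMIs in 8 of 252 α-, δ- and PP-cells, and the edgeR fit with the sample as a block gave a log2 fold change of 4.69 (SE 0.34, adjusted p = 8.93e-15, higher in β-cells in 8 of 8 samples). That fit called 21.9% of 2392 tested genes higher in β-cells. Tmem215 passed its low-count filter through the β-cells, since 5 of 8 samples had 0 UMIs in the other cells. The size of the difference therefore rests on few UMIs, and nothing is read from the adjusted p. The pooled ratio of levels was 23.5 (95% exact interval 11.9 to 54.6), with an exact sign-flip permutation p of 0.00781 over the 8 samples. Against PP-cells alone, which held 7 UMIs in 2 samples (pooled ratio of levels 15.8, 7.63 to 39.4), the fitted log2 fold change was 3.93 (SE 0.36) in a fit that called 17.2% of 2913 genes higher and that Tmem215 likewise entered through its β-cell counts. The α-cells held 1 UMI of Tmem215 in 112 cells, so the size of that difference is poorly set: the pooled ratio of levels was 72.3 with a 95% exact interval of 12.9 to 2860.

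Gad1 had 377 UMIs in 260 β-cells and 11 UMIs in 11 other hormone cells. The mean over 8 samples was 73.7 ± 54.1 CPM in β-cells and 9.07 ± 9.68 CPM in the other cells (SD), a difference present in 8 of 8 samples (exact two-sided sign-flip permutation p = 0.00781, the smallest that 8 samples allow). Of the 11 UMIs, 5 came from 5 of the 26 α-cells of control sample 4, which held 52.5 CPM there against 65.5 CPM in the β-cells of that sample. Pooled over samples, α-cells held 14.7 CPM (95% exact Poisson interval 5.89 to 30.2) and β-cells 59.4 CPM (53.5 to 65.7), and the edgeR fit of β-cells against α-cells gave a log2 fold change of 2.71 (SE 0.50, adjusted p = 4.78e-07), where 21.2% of 1963 genes were called higher in β-cells. That value rests on 7 UMIs in the α-cells of 3 samples, with a pooled ratio of 4.05 (1.95 to 10.1). Gad1 entered the fit through its β-cell counts, so nothing is read from this adjusted p. PP-cells held 5.48 CPM of Gad1 (1.49 to 14) and δ-cells 0 UMIs, where 3 counts would be 85.9 CPM.

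T2 had 179 UMIs in 138 β-cells and 3 UMIs in 2 other hormone cells, 2 of these UMIs in the only δ-cell of PPTx sample 1. It was higher in β-cells in 7 of 8 samples (30.7 ± 16.5 against 2.05 ± 4.58 CPM, SD, exact sign-flip permutation p = 0.0156). 2210019I11Rik had 155 UMIs in 118 β-cells and 3 UMIs in 3 other cells, 2 PP-cells of PPTx sample 2 and the only α-cell of PPTx sample 4. It too was higher in β-cells in 7 of 8 samples (23.9 ± 12.8 against 3.4 ± 6.98 CPM, SD, exact sign-flip permutation p = 0.0312), but not past 0.05 without any 1 of the 4 control samples or PPTx sample 3 (exact p = 0.0625 each). T2 and 2210019I11Rik each had 0 UMIs in the other cells of 6 samples. In PPTx sample 4, 3 counts of T2 there would be 57.7 CPM, against 11 CPM in β-cells. For 2210019I11Rik in control sample 1, 3 counts would be 112 CPM, against 25.5 CPM in β-cells. A higher value in β-cells was the likely outcome in such samples, and both permutation p are read with that limit. Of the 4 comparisons with other hormone cells, the fit across genes could give only that of Tmem215, since the low-count filter left out the other genes. The exact tests were added for that reason.

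**Figure D2:**
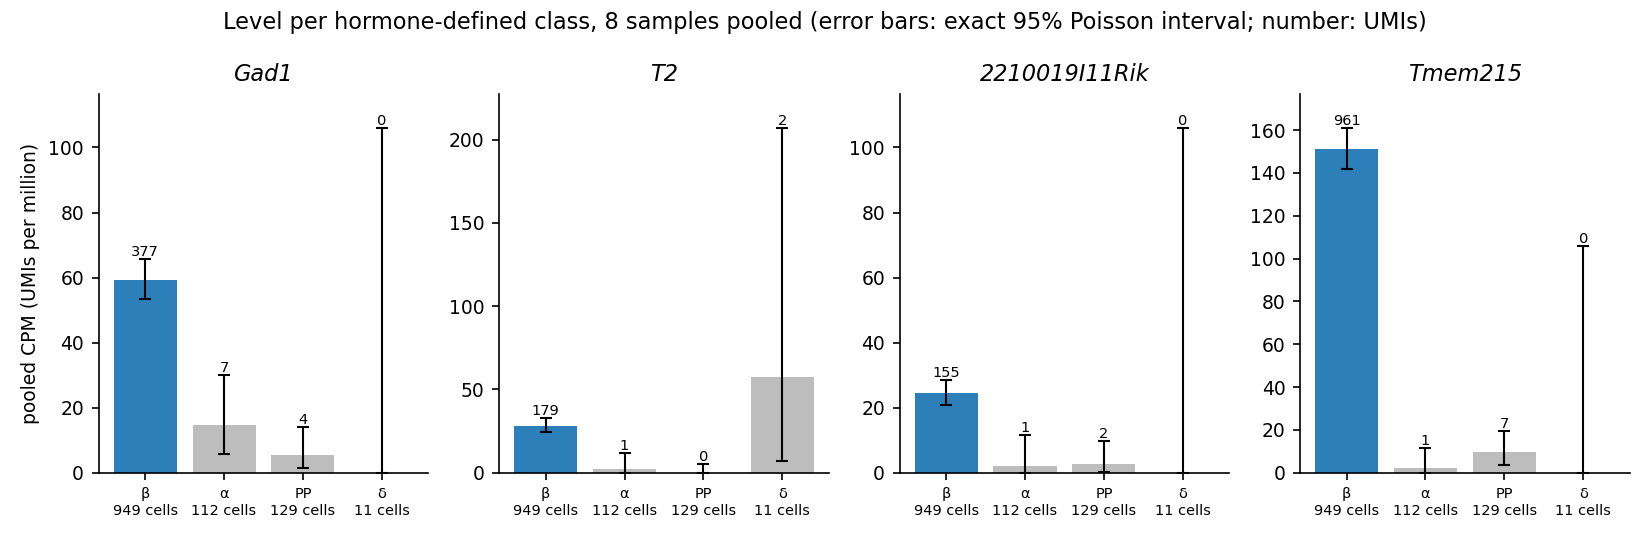
Level of each gene in the 4 hormone-defined classes, in CPM over the UMIs of all 8 samples pooled (linear axes from 0, a different scale in each panel), with 95% exact Poisson intervals that cover counting error only and the number of UMIs above each bar. The β-cell bar is the highest in each panel except T2, where 2 UMIs in 1 of 11 δ-cells gave 57.3 CPM with an interval of 6.94 to 207.

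Free RNA in the droplets can give other cells a few UMIs of β-cell genes. Insulin in the α-, δ- and PP-cells stood at 1.59% of its β-cell level, although low insulin also defined those cells. The pooled level of Gad1 in them was 14.9% of that in β-cells (7.38 to 27), of T2 8.56% (1.75 to 25.4), of 2210019I11Rik 9.89% (2.02 to 29.4) and of Tmem215 4.25% (1.83 to 8.41), with 95% exact intervals. At the insulin share, 1.17 UMIs of Gad1 and 2.98 UMIs of Tmem215 would be found, against the 11 and 8 counted. After thinning to 2000 UMIs, Gad1 was found in 0 of 135 control and 2 of 117 PPTx cells of these classes, whose median depths were 4016 and 4650 UMIs.

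PPTx and control could not be compared by a fit in the other hormone cells, where the filter on low counts left out all 4 genes. Gad1 had 6 UMIs in 135 control cells (9.65 CPM, 95% exact interval 3.54 to 21) and 5 UMIs in 117 PPTx cells (8.05 CPM, 2.61 to 18.8). T2 had 1 and 2 UMIs, 2210019I11Rik 0 and 3 UMIs, and Tmem215 1 and 7 UMIs. Tmem215 thus stood at 1.61 CPM (0.0407 to 8.96) in control and 11.3 CPM (4.53 to 23.2) in PPTx cells, all 7 of the latter UMIs in PP-cells. The control cells were mostly α-cells and the PPTx cells mostly PP-cells, so group and class cannot be told apart in this sum.

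Next, detection of the genes in the same β-cells was counted at 2000 UMIs per cell (plot of joint detection). Within each sample, the number of cells expected to hold both genes was taken from the 2 single rates. Gad1 and T2 were found together in 14 cells against 8.35 expected, a ratio of 1.68 with a 95% exact Poisson interval of 0.917 to 2.81. Of these cells, 12 were from control (5.92 expected) and 2 from PPTx (2.43 expected). 2210019I11Rik and Tmem215 were found together in 15 cells against 9.28 expected (1.62, 0.905 to 2.67), and Gad1 and Tmem215 in 35 against 29.1 (1.2, 0.837 to 1.67). For T2 and Tmem215 the counts were 18 and 16.2 (1.11, 0.657 to 1.75). Gad1 and 2210019I11Rik shared 2 cells against 4.72 expected (0.424, 0.0513 to 1.53) and T2 and 2210019I11Rik 2 cells against 2.53 (0.791, 0.0959 to 2.86). Over the 8 samples all 6 intervals held 1. In control alone the ratio of Gad1 and T2 was 2.03 (1.05 to 3.54) and in PPTx alone 0.822 (0.0996 to 2.97), and without control sample 1 it was 1.89 (1.01 to 3.24). These intervals cover counting error only, are not adjusted for the pairs and sets of samples looked at, and the difference between the groups was not tested.

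With all UMIs used, 65 cells held Gad1 and T2 against 44.5 expected (ratio 1.46, 1.13 to 1.86), and the intervals of the other 5 pairs held 1. The expected numbers without thinning use 1 rate per gene and sample for cells of unequal depth, and deeper cells hold more of every gene, so a ratio above 1, or more cells than expected with none or with several of the genes, can arise without any association. These counts are therefore given as a description, and the ratio at equal depth is the one printed above, whose interval held 1. Over single cells with all UMIs, 61 of 375 control β-cells (mean over samples 17.5% ± 4.57, SD, n = 4) and 236 of 574 PPTx β-cells (41.3% ± 12.5) held none of the 4 genes, where independent detection within each sample gives 52.6 and 214. Cells with 3 of the 4 genes numbered 46 of 375 in control and 19 of 574 in PPTx, against 38.9 and 13.1. All 4 genes were found in 3 control and 3 PPTx β-cells, against 4.01 and 0.68. After thinning no cell held all 4, and 204 control and 389 PPTx β-cells held none, against 192 and 385 expected.

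**Figure D3:**
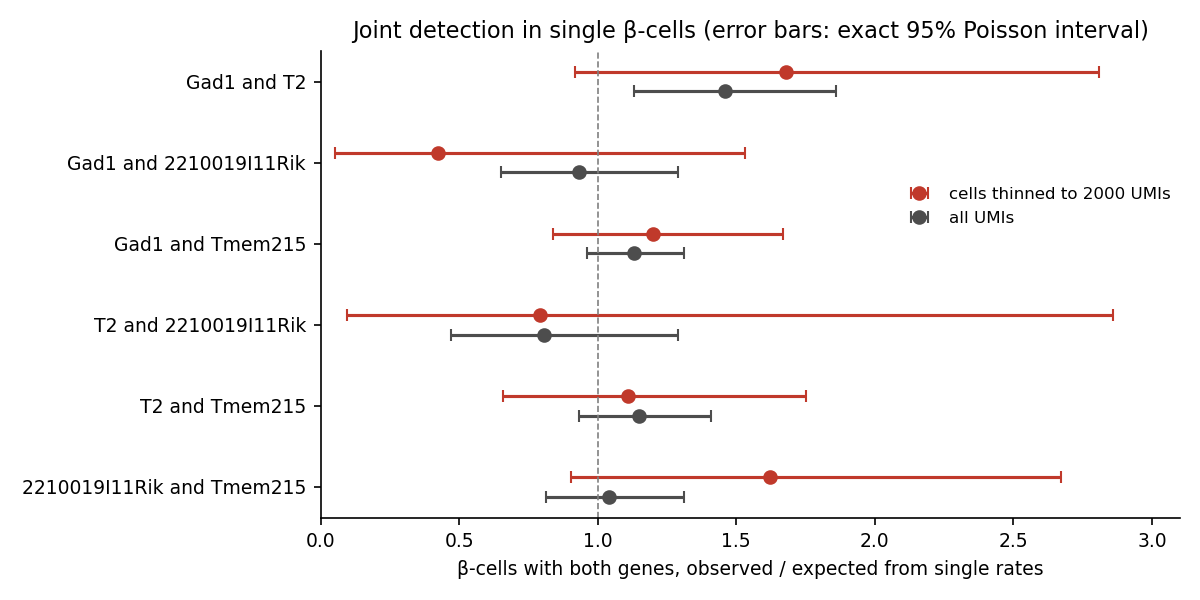
Observed over expected number of β-cells in which both genes of a pair had a UMI, on a linear axis with 1 (dashed) for independent detection, for cells thinned to 2000 UMIs (red) and for all UMIs (grey), with 95% exact Poisson intervals of the observed count. The red intervals of all 6 pairs hold 1, and the grey interval of Gad1 and T2 runs from 1.13 to 1.86.

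β-cells with at least 2 UMIs of 10 replication genes, among them Mki67 and Top2a, were compared with the other β-cells of the same sample. The expected counts and the permutation tests bear on levels within a sample and not on PPTx against control. The pooled ratios of levels given below sum over samples of both groups. They therefore also take in the difference between PPTx and control that chose the genes. There were 40 such cells, 1 to 14 in a sample. Gad1 held 7 UMIs in them where the level of the other β-cells of each sample gives 15.2. Observed over expected UMIs within samples was thus 0.461. The ratio of levels pooled over all samples was 0.388 (95% exact interval 0.155 to 0.807). Gad1 was lower in these cells in all 8 samples (exact two-sided sign-flip permutation p = 0.00781), but 4 samples held 0 UMIs there, and in control samples 1 and 2 and PPTx sample 4 only 0.319, 1.11 and 0.302 UMIs were to be found at an equal level. A lower value was thus the likely outcome in such samples, and the permutation p and the log2 ratio of the sample means (-2.08) are read with that limit. With at least 1 UMI of the replication genes, 14 UMIs of Gad1 were counted against 24.6 expected within samples (0.57). The pooled ratio was then 0.461 (0.25 to 0.784, 66 cells, lower in 6 of 8 samples, exact permutation p = 0.0469). With the replication genes counted after thinning, 3 UMIs were counted against 7.75 expected (0.387). The pooled ratio was 0.347 (0.0712 to 1.02, 23 cells), and this interval holds 1.

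T2 held 5 UMIs in the 40 cells against 7.56 (log2 ratio -0.92, exact permutation p = 0.25), and 2210019I11Rik 6 against 6.29 (-1.08, exact permutation p = 0.227). The pooled ratio for 2210019I11Rik was 0.825 (0.298 to 1.84), or 1.14 (0.308 to 2.99) with the replication genes counted after thinning. Its observed over expected UMIs within samples were 0.955 and 1.24 in these 2 settings. The log2 ratio of means for 2210019I11Rik is set by samples at 0 UMIs. Tmem215 held 36 UMIs against 42.5 (-0.65, exact permutation p = 0.18). The pooled ratio of levels for Tmem215 had a 95% exact interval of 0.555 to 1.11, and that for T2 0.189 to 1.4. T2 passed 0.05 without control sample 4 (log2 ratio -2.25, exact permutation p = 0.0312), in which 2 UMIs in 1 cell gave 86.4 CPM. These were 4 tests without adjustment, 1 a gene.

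**Figure D4:**
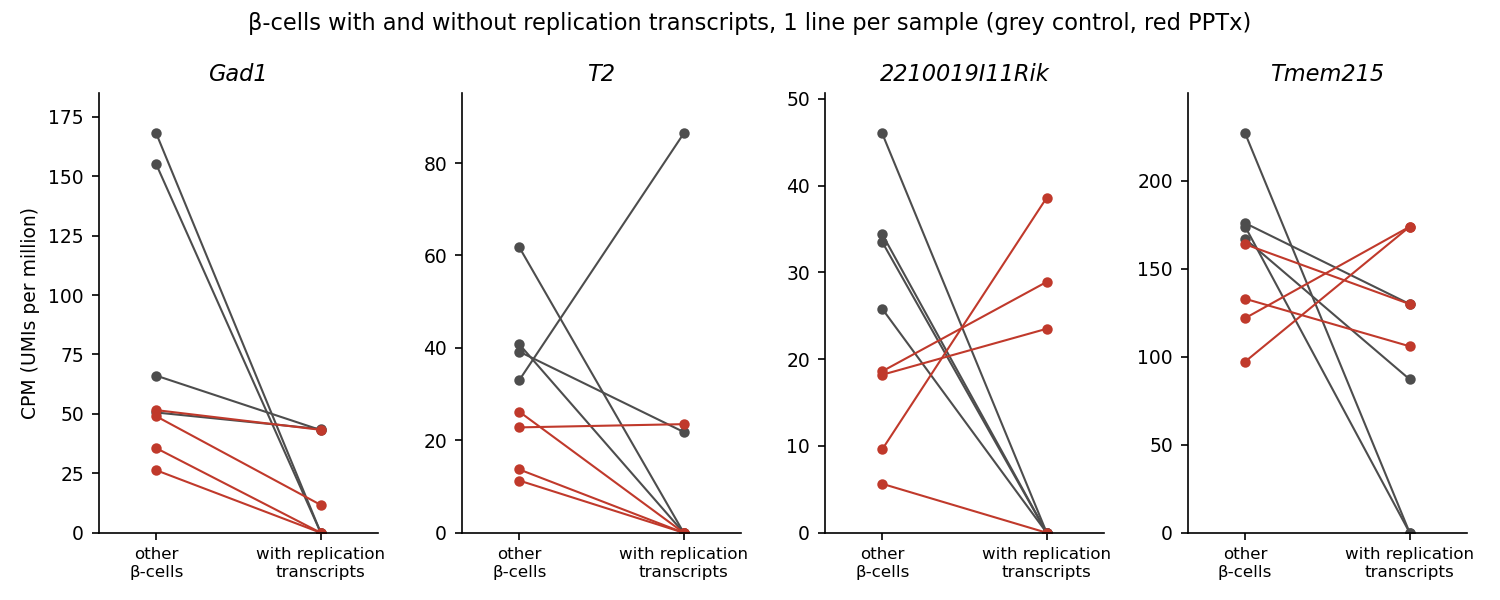
Level of each gene in CPM (linear axes from 0) in the β-cells with at least 2 UMIs of replication genes and in the other β-cells, joined by 1 line for each of the 8 samples (grey control, red PPTx). All 8 lines fall for Gad1, and lines run both ways for the other 3 genes; points at 0 rest on 1 to 14 cells.

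For the pathway of Gad1, 45 other genes of GABA synthesis, cofactor supply, breakdown, transport, receptors and glutamate supply are reported, and 27 of them had a UMI in β-cells. In the fit of PPTx against control, 10 passed the low-count filter. Of these 10, edgeR called 0, against 0.272% of all genes tested in either direction. DESeq2 called none either, but it gave no adjusted p for T2 (179 UMIs) and 2210019I11Rik (155 UMIs). Some of the 10 had fewer UMIs, such as Got1 with 92, so nothing is read from the missing DESeq2 calls. At an unadjusted p under 0.05 there was 1 of 10 (Glul), beside 9.42% of all genes tested (555 of 5892), so the share in the list was near that of all genes. The median log2 fold change of the 10 was -0.17, beside -0.01 over all tested genes, with 3 above and 7 below 0. Gad2, the other glutamate decarboxylase, had 0 UMIs in every sample, so Gad1 was the only one detected.

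Among the breakdown enzymes, the GABA transaminase Abat held 67.4 ± 10.4 CPM in control and 65.4 ± 11.1 CPM in PPTx β-cells (SD, n = 4 each, log2 fold change -0.14, SE 0.19). Aldh5a1, which oxidizes the product of Abat, held 20.5 ± 8.88 and 20.7 ± 9 CPM. Slc6a6, a taurine transporter that also carries GABA, held 108 ± 25.5 and 101 ± 14.3 CPM, and Lrrc8d, a subunit of the volume-regulated anion channel, 32 ± 10.5 and 27.5 ± 9.02 CPM. For all 4 genes the control and PPTx samples overlapped. Of the listed genes too low to be tested, 2 are named after their values were seen, since their groups did not overlap. They differed in opposite directions, and the share of all genes whose groups do not overlap was not counted. Nothing is therefore read from these 2 genes. Pdxp (19 UMIs) held 0 to 1.15 CPM in control and 3.84 to 6.39 CPM in PPTx samples. Gpt2 (27 UMIs) held 4.72 to 10.2 CPM and 1.6 to 4.15 CPM.

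Glul, the glutamine synthetase that uses glutamate, held 184 ± 41.5 CPM in control and 141 ± 9.88 CPM in PPTx (SD, n = 4 each, log2 fold change -0.45, SE 0.17, adjusted p = 0.397 in edgeR). Glud1, the glutamate dehydrogenase, held 34.2 ± 6.34 and 37.7 ± 4.36 CPM. The vesicular GABA transporter Slc32a1 had 0 UMIs.

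**Figure D5:**
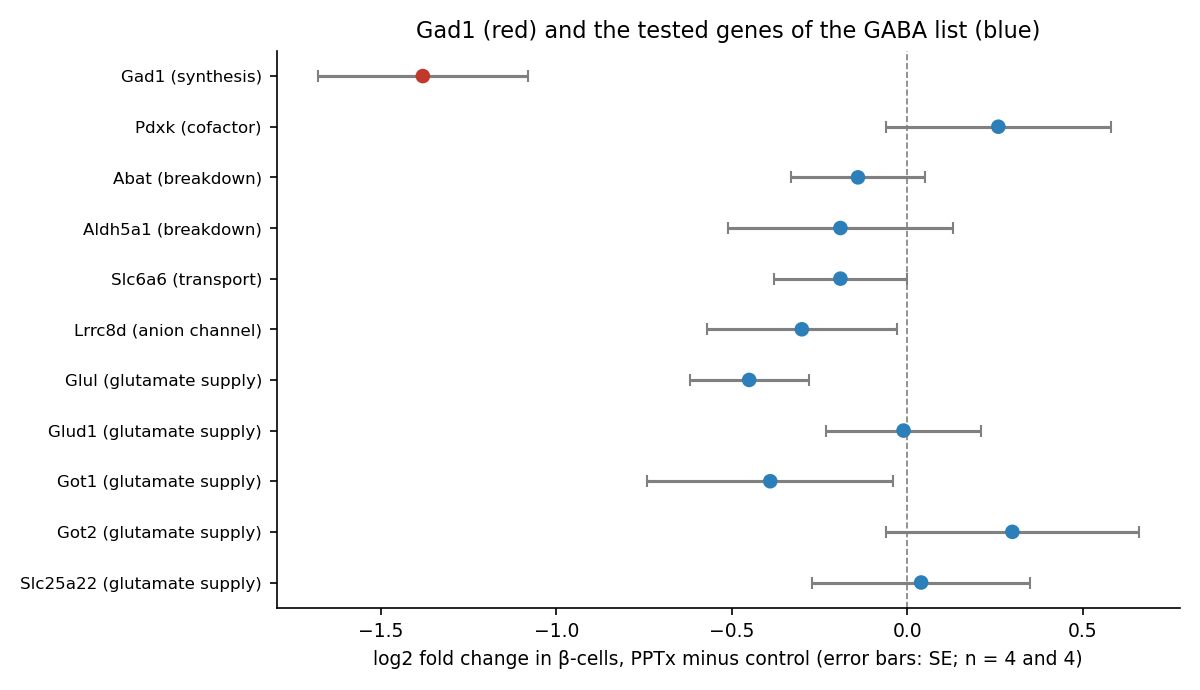
Log2 fold change in β-cells, PPTx minus control, with its SE, for Gad1 (red) and for the 10 tested genes of the GABA list (blue), from the fit of 4 control and 4 PPTx samples. Gad1 lies at -1.38, and the other genes lie between -0.45 (Glul) and 0.30 (Got2).

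Of the 16 annotated genes that lie nearest to the 4 genes, 2 on each side, 8 were in the count tables. Of these, Erich2, Prr18, Gm16702 and 4930509K18Rik had 0 UMIs in β-cells, Gad1os had 3, 4933428C19Rik had 2 and Pdx1 had 42. Aptx, beyond Tmem215, had 82 and was the only one tested, with 13.8 CPM in control and 13.3 CPM in PPTx (log2 fold change -0.08, SE 0.33, adjusted p = 0.974 in edgeR).

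The genes whose levels over the 8 β-cell sums were most like those of each gene were ranked by Pearson's r of log2 CPM, a description in which the 2 groups set much of the likeness. Gad1 was nearest to Nbr1 (0.97), Ing1 (0.96) and Defb1 (0.96). T2 was nearest to Cib3 (0.97), Cebpg (0.96) and Nalcn (0.94), the last a sodium leak channel. 2210019I11Rik was nearest to Papss2 (0.97), Grik5 (0.96) and Rnf2 (0.95). Tmem215 was nearest to Nudt4 (0.98), Trpm5 (0.97) and Cib3 (0.95), so that Cib3 stood in 2 of the 4 lists. All of these genes had negative log2 fold changes, from -0.32 (Nbr1) to -1.06 (Trpm5).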

How the data were processed

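Single islet cells of 4 control and 4 PPTx samples were used. The authors aligned reads to mm10 and deposited UMI counts per gene and cell, without normalization (bcl2fastq is named in the submitters' processing notes). A ddSEQ kit is named in the methods and a Chromium kit in the labels. Of 1240 cells, 1232 passed limits of 100 and 3000 genes and of 100 and 20000 UMIs. No cell had fewer than 2005 UMIs, so cells had been selected before deposit, and no doublet caller was run. Counts were summed per sample and hormone class (share of at least 70%) and tested by the quasi-likelihood method of edgeR 4.0.16 with filterByExpr and TMM at an adjusted p of 0.05 (Benjamini-Hochberg) in R 4.3.3, checked on simulated data. DESeq2 1.42.0, other shares, thinning and samples left out were alternatives. Exact tests used Python 3.11.15 and scipy 1.17.1. Fold changes are on the log2 scale, their SE taken from the test statistic. Intervals are 95% and cover counting error only. All tests are two-sided, and samples are the replicates, though some are pools of mice. Besides the 4 genes, the text names the nearest 2 annotated genes on each side, genes of the GABA list (some of which are not reported here or counted) with a mean of at least 20 CPM (counts scaled to 1000000) in β-cells, and the 3 genes most like each in level. Genes and lists were chosen with earlier results of these data known. No column of another sample was present.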

Additional observations from a re-analysis of the deposited data

Results flagged for a closer look

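Among 58 sets of 4 samples whose values were checked, 2 held a sample far from the others, where chance gives about 1 in 20. Glud1 stood at 43.6 CPM in the β-cells of 1 control sample and at 31.8 CPM in the next. PP-cells made up 10.1% of the cells of 1 PPTx sample and 14.4% in the next. None of the levels or detection rates of Gad1, T2, 2210019I11Rik and Tmem215 in β-cells held such a sample by this measure.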

How the results depend on the processing

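The log2 fold changes of the 4 genes in β-cells kept their sign under all alternatives that could be fitted, and moved by more than the SD between replicates only for Tmem215 after thinning to 2000 UMIs (-0.82), where T2 and 2210019I11Rik were too low to be tested. Leaving out 1 sample gave -1.67 to -0.99 for Gad1, -1.35 to -1.10 for T2, -1.56 to -1.24 for 2210019I11Rik and -0.63 to -0.49 for Tmem215. The number of genes called higher was 10 in the main analysis, 18 with DESeq2, 23 without TMM scaling, 76 with no filter on low counts, 23 with a replicate block and 4 after thinning. The number called lower was 6, and became 22 with no filter, 12 with a replicate block, 2 after thinning and 17 over all kept cells. Leaving out 1 sample gave 1 to 11 higher and 0 to 9 lower. The low counts without control sample 1, control sample 2 or PPTx sample 1 mean that the calls rest on each of these. DESeq2 gave no adjusted p for T2 and 2210019I11Rik. The replicate numbers do not pair the samples by any label. Deviations of same-numbered samples correlated at 0.03 to 0.15 over genes, and those of differently numbered samples at -0.11 to 0.07. Whether the numbers mark pairs was not tested. The difference between β-cells and other hormone cells kept its direction, and for 2210019I11Rik leaving out 1 sample gave a log2 ratio of 2.43 to 4.54 with exact p of 0.0156 to 0.0625. The range of this log2 ratio was 2.59 to 3.49 for Gad1 and 3.50 to 6.10 for T2 (highest without PPTx sample 1, which held 2 of its 3 UMIs in other cells). For Tmem215 the log2 fold change fitted by edgeR, another quantity, ranged from 4.20 to 5.71 (highest without PPTx sample 2). For T2 in cells with replication transcripts the range was -2.25 to -0.51, and for joint detection of T2 and 2210019I11Rik 0 to 1.08, since both shared cells were in PPTx sample 3. The cause of these shifts was not tested. Depth limits T2 and 2210019I11Rik most, with 179 and 155 UMIs in all β-cells. PPTx against control in other hormone cells could not be fitted for these genes under the main settings.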
